A study of Mus musculus with 50 samples.

Results

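The Dppa genes (developmental pluripotency associated) take their shared name from their expression in early embryos and embryonic stem (ES) cells, not from a common sequence. Dppa2, Dppa3, Dppa4 and Dppa5a were chosen by name, and all 4 had a row among the 24412 genes of the first table and the 24413 of the second. Each of them passed the filter on low values (at least 2 libraries with 1 TPM or more, where TPM is the share of transcripts, corrected for length) in both tables. Dppa1 also had rows but reached no more than 0.149 TPM in the first table and 0.207 TPM in the second, and it was not followed.

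RNA was measured in mouse TT2 ES cells lacking enzymes that methylate lysine 9 of histone H3 (H3K9), in 50 libraries forming 25 groups of 2. The first table held 18 libraries: control cells, Setdb1-KO (knockout), Suv39h1/2-DKO (double knockout of Suv39h1 and Suv39h2), Suv39h1/2;Setdb1-TKO, G9a-KO, G9a;Setdb1-DKO, G9a;Suv39h1/2-TKO, G9a;Suv39h1/2;Setdb1-QKO (quadruple knockout, QKO) and a QKO that also lacks Dux (Dux-KO QKO), which is a line of its own. G9a is the product of Ehmt2. The second table held 32 libraries of the same 8 genotypes without the extra Dux-KO group, in lines that all carried a Dux knockout and a doxycycline-inducible Dux transgene (Tet-on-Dux), each without doxycycline and with it. By title these 8 genotypes came from 4 lines, each as NT and OHT. The doxycycline label was 0.2 for the control and Setdb1-KO genotypes and 1 for the other 6, with no unit given. Titles of groups lacking Setdb1 carried OHT and those of the others NT, so what these marks stand for and the loss of Setdb1 cannot be told apart. Apart from Dux-KO QKO, each OHT group shared its line with the NT group that differed from it only in Setdb1. Groups that differed in G9a or Suv39h1/2 came from different lines, so loss of these enzymes and the line cannot be told apart. The labels do not say whether a line is 1 clone or whether replicates were separate cultures, so p-values measure the spread between these libraries, which may be technical.

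Dppa2 and Dppa4 are chromatin proteins that bind each other and are known activators of Dux, the transcription factor that switches on genes of the 2-cell embryo in a small part of an ES cell culture. Dppa3 (also called Stella or PGC7) is a maternal protein that shields DNA methylation in the zygote and restrains Uhrf1, the partner of the maintenance methyltransferase Dnmt1. Dppa5a (also called Esg1) is a small RNA-binding protein with a KH domain, abundant in ES cells and related to the oocyte genes Ooep and Khdc3. In bulk RNA, fewer expressing cells and less RNA per cell cannot be told apart. That matters here because Dppa3 and the 2-cell genes are known to be uneven between ES cells.

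In the GENCODE M21 annotation of GRCm38, the build that mm10 names, Dppa4 lies on chr16:48283733-48294237 and Dppa2 follows it on the same strand at chr16:48303908-48319723, with 9670 bases between them. Dppa3 is on the plus strand of chr6:122626410-122630272, near Nanog, and Dppa5a on the minus strand of chr9:78367052-78368177, near Ooep. Parts of these transcripts occur in other annotated transcripts. Of the 150-base words of the longest protein-coding transcript, the length of 1 read, 20.1% for Dppa2 and 12.6% for Dppa4 were shared with another gene's transcripts, and 0% for Dppa3 and Dppa5a. With 31-base words the shares were 33.8% for Dppa2, 31.8% for Dppa3, 44.3% for Dppa4 and 57.2% for Dppa5a, so levels may be uncertain where reads were divided among copies. Promoter and protein sequences of the members were not used here.

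The targeted genes were lower in the lines named for their loss. Ehmt2 ranged from 7.38 to 30.2 TPM in the 10 libraries of the first table lacking G9a and from 82.5 to 104 TPM in the other 8, and in the second table from 1.95 to 6.58 TPM against 53.2 to 196 TPM in 16 libraries each. Setdb1 ranged from 19.8 to 36.5 TPM without Setdb1 and from 41.4 to 53.2 TPM with it in the first table, and from 13.9 to 28.8 TPM against 29.2 to 71.0 TPM in the second. Suv39h1 and Suv39h2 were lower in median but kept 11.1 TPM or more and 12.1 TPM or more in every Suv39h1/2-deficient library of the first table. The ES cell marker Pou5f1 lay between 1954 and 2621 TPM in the first table and between 1248 and 2277 TPM in the second. Markers of other cells were low but not absent. The sum over 7 fibroblast markers was 1.92 to 10.7 TPM over all libraries, with Col3a1 and Postn at or below 0.157 TPM and Lum and Thy1 reaching 6.73 and 7.27 TPM. The sum over 6 trophoblast markers was 15.7 to 66.5 TPM, with Elf5 at or below 0.776 TPM and Tfap2c and Eomes reaching 54.0 and 20.9 TPM. In the second table, 6 of 32 libraries stood apart by high levels of small nucleolar RNA host genes (Snhg). Their mean log2 level over 14 Snhg genes was 4.46 to 4.94, against 2.57 to 3.49 in the other 26, and all 18 libraries of the first table lay between 4.603 and 5.22.

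Dppa5a was among the most abundant RNAs of these cells and Dppa3 the least abundant member. By mean TPM, which is per transcript length, Dppa5a ranked 16th of 24412 genes in the first table and 5th in the second, Dppa4 ranked 527th and 913th, Dppa2 729th and 579th, and Dppa3 5423rd and 3437th. Group means in the first table spread 2.76-fold for Dppa2, 15.8-fold for Dppa3, 1.54-fold for Dppa4 and 3.34-fold for Dppa5a. Dppa3 had the lowest level and the widest spread, and Dppa4 the narrowest.

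**Figure D1:**
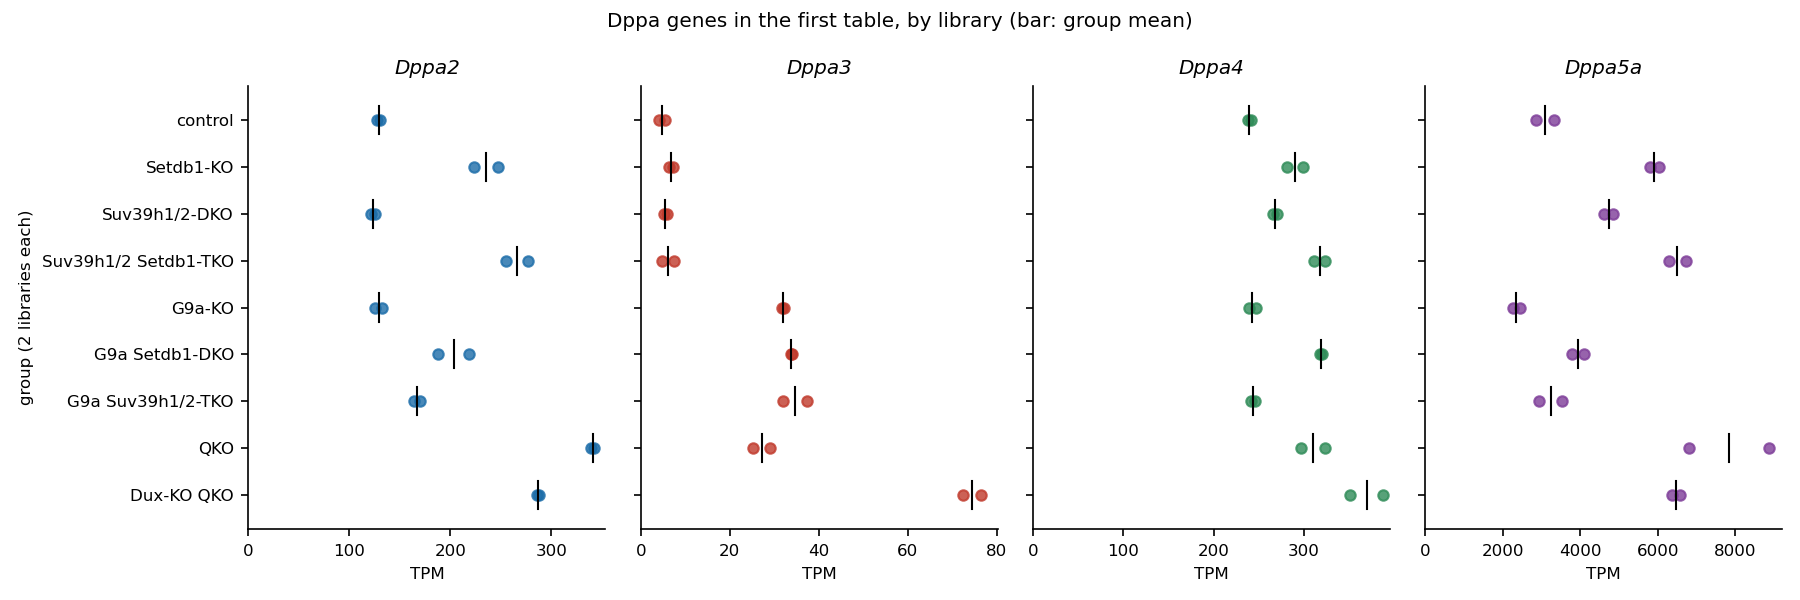
Level of each Dppa gene (TPM, linear axis from 0) in the 18 libraries of the first table, with points for libraries and a bar for the mean of each group of 2. Dppa2 and Dppa4 do not overlap between libraries with and without Setdb1, nor Dppa3 between those with and without G9a.

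Against control cells, members rose in most genotypes: of 32 pairs of a member and a genotype in the first table, 22 were higher and 1 lower by limma on log2(TPM + 1) at an adjusted p below 0.05, and 11 of the 22 were at least 2-fold higher. At an unadjusted p below 0.05 the counts were 23 and 1. Setdb1-KO cells had 3 of 4 members higher, where 12.5% of all 13862 tested genes were higher. In Suv39h1/2-DKO cells 1 of 4 was higher against 0.981% of all genes, and in Suv39h1/2;Setdb1-TKO cells 3 of 4 against 13.8% (2 of them 2-fold, against 4.74%). G9a-KO cells had 1 higher and 1 lower, against 16.9% and 18.1% of all genes. In G9a;Setdb1-DKO cells all 4 were higher against 23.5%, in G9a;Suv39h1/2-TKO cells 2 against 14.4%, in QKO cells 4 against 25.3%, and in Dux-KO QKO cells 4 against 36.3%. These comparisons share the same 2 control libraries. The median log2 fold change of all tested genes was -0.12 in Setdb1-KO and 0.15 in Dux-KO QKO cells, and within 0.1 of 0 in the other 6 comparisons with control.

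Dppa2, the Dux activator, was higher in the 5 genotypes lacking Setdb1 and in G9a;Suv39h1/2-TKO cells. It was at 130 and 128 TPM in the control libraries, 224 and 248 in Setdb1-KO, 277 and 255 in Suv39h1/2;Setdb1-TKO, and 187 and 219 in G9a;Setdb1-DKO. QKO libraries had 339.5 and 343 TPM and Dux-KO QKO libraries 286 and 288. The 10 libraries lacking Setdb1 (187 to 343 TPM) did not overlap with the 8 that kept it (122 to 170 TPM). The share of all tested genes that separate in this way was not counted, here or for the other members and the figures. Suv39h1/2-DKO libraries (122 and 125 TPM) and G9a-KO libraries (126 and 132 TPM) lay near the controls.

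By limma, the log2 fold change of Dppa2 against control was 0.86 in Setdb1-KO (SE 0.0907, adjusted p = 5.75e-06) and 1.40 in QKO (SE 0.0907, adjusted p = 1.02e-08). It was 1.04 in Suv39h1/2;Setdb1-TKO, 0.65 in G9a;Setdb1-DKO and 1.15 in Dux-KO QKO, each past the test. In G9a;Suv39h1/2-TKO cells, at 164 and 170 TPM, it was 0.37 (SE 0.0907, adjusted p = 0.00686). That call was lost without control replicate 2 (adjusted p = 0.0529) and without replicate 2 of the TKO itself (adjusted p = 0.0593). In G9a-KO cells the difference was -0.00 (95% interval -0.21 to 0.20, adjusted p = 0.994) and in Suv39h1/2-DKO cells -0.06 (-0.27 to 0.14, adjusted p = 0.919). Ordered by mean, Dppa2 libraries of neighbouring groups overlapped only between G9a-KO and control.

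Dppa4, its binding partner, was higher in the 5 genotypes lacking Setdb1, by smaller folds. Control libraries had 242 and 238 TPM, Setdb1-KO 299 and 281, Suv39h1/2;Setdb1-TKO 311 and 324, G9a;Setdb1-DKO 318 and 319.96, QKO 323 and 297, and Dux-KO QKO 351 and 387. The 10 libraries without Setdb1 (281 to 387 TPM) again did not overlap with the 8 others (238 to 270.2 TPM). The log2 fold change against control was 0.27 in Setdb1-KO (SE 0.0803, adjusted p = 0.0169), 0.41 in G9a;Setdb1-DKO (adjusted p = 0.000663) and 0.62 in Dux-KO QKO (adjusted p = 1.08e-05). Dppa4 was higher by limma in 5 of 8 genotypes, in none of them 2-fold. The Setdb1-KO call was lost without control replicate 1 (adjusted p = 0.0714), control replicate 2 (adjusted p = 0.0938) or Setdb1-KO replicate 1 (adjusted p = 0.114). In G9a-KO (239 and 247 TPM), G9a;Suv39h1/2-TKO (246 and 242 TPM) and Suv39h1/2-DKO cells (270.2 and 265 TPM) it did not pass the test.

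In the first table, the ratio of Dppa2 to Dppa4, both per transcript length, was higher than in control in the groups lacking Setdb1 and in G9a;Suv39h1/2-TKO. Dppa2 was at 0.538 and 0.540 of Dppa4 in the control libraries, 0.749 to 0.880 in Setdb1-KO, and 1.05 to 1.16 in QKO. In Dux-KO QKO cells the ratio was 0.744 to 0.815, in G9a;Setdb1-DKO 0.589 to 0.684 and in G9a;Suv39h1/2-TKO, which kept Setdb1, 0.666 to 0.704. In the second table without doxycycline, the control libraries (0.830 and 1.32) overlapped with Setdb1-KO, Suv39h1/2;Setdb1-TKO and G9a;Setdb1-DKO. QKO (2.00 to 2.10) and G9a;Suv39h1/2-TKO (1.34 to 1.42) lay above control there. The ratio is a description and was not tested.

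Dppa3, the Uhrf1-restraining factor, was set apart by G9a and not by Setdb1. Control libraries had 4.001 and 5.41 TPM, Setdb1-KO 7.33 and 6.33, Suv39h1/2-DKO 5.83 and 5.15, and Suv39h1/2;Setdb1-TKO 4.72 and 7.59. G9a-KO libraries had 32.1 and 31.9 TPM, G9a;Setdb1-DKO 33.7 and 34.0, G9a;Suv39h1/2-TKO 32.1 and 37.3, QKO 29.1 and 25.2, and Dux-KO QKO 72.5 and 76.5. The 10 libraries without G9a (25.2 to 76.5 TPM) and the 8 with it (4.001 to 7.59 TPM) did not overlap, and Dux-KO QKO stood highest.

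Dppa3 was 2-fold or more higher than control in the 5 genotypes lacking G9a, where 5.52% (G9a-KO), 9.58% (G9a;Setdb1-DKO), 4.65% (G9a;Suv39h1/2-TKO), 10.1% (QKO) and 16.8% (Dux-KO QKO) of all tested genes were. Its log2 fold change by limma was 2.54 in G9a-KO (SE 0.173, adjusted p = 3.88e-08), 2.62 in G9a;Setdb1-DKO, 2.65 in G9a;Suv39h1/2-TKO, 2.31 in QKO and 3.74 in Dux-KO QKO (SE 0.173, adjusted p = 1.75e-10). In Setdb1-KO cells it was 0.46 (SE 0.173, adjusted p = 0.0503). That value passed with replicate numbers as a block within the parental line (adjusted p = 0.0464). It also passed with scaling by median ratios (adjusted p = 0.0276) and without control replicate 2 (0.0380) or either Suv39h1/2;Setdb1-TKO library (0.0211 and 0.0213). Dppa3 in Suv39h1/2;Setdb1-TKO cells was at 0.31 (adjusted p = 0.193) and passed without its replicate 1 (0.60, adjusted p = 0.0205).

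Markers of primitive endoderm, the extraembryonic lineage that ES cultures can give rise to, moved with Dppa3 in part. All 8 of them were higher than control in G9a-KO (as were 16.9% of all tested genes), G9a;Setdb1-DKO (23.5%), G9a;Suv39h1/2-TKO (14.4%) and Dux-KO QKO cells (36.3%). They were also higher in Suv39h1/2;Setdb1-TKO cells (13.8%), where Dppa3 was not. Their summed level was 80.3 to 85.0 TPM in control, 534 to 591 in G9a-KO, 506 to 600 in G9a;Suv39h1/2-TKO, 243 to 305 in G9a;Setdb1-DKO, 129 to 153 in QKO and 359 to 372 in Dux-KO QKO. In the knockouts that kept G9a it was 119 to 154 in Setdb1-KO, 144 to 156 in Suv39h1/2-DKO and 186 to 230 in Suv39h1/2;Setdb1-TKO. These sums overlapped with or lay above that of QKO, though Dppa3 was high only in QKO. None of the 8 markers was at 0 in any group. The part of such cells in the Dppa3 result was not tested. Of the 6 primordial germ cell markers, cells in which Dppa3 is known to be active, 1 was higher in G9a-KO (Prdm1, 0.485 to 3.83 TPM) and 3 were lower. In that comparison 16.9% of all tested genes were higher and 18.1% lower.

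Dppa5a, the KH-domain RNA-binding protein, was higher in the genotypes lacking Setdb1 and in Suv39h1/2-DKO, and lower in G9a-KO. The calls in Suv39h1/2-DKO, G9a;Setdb1-DKO and G9a-KO were lost under other settings, given below. Control libraries had 2849 and 3327 TPM, Setdb1-KO 6031 and 5803, Suv39h1/2-DKO 4850 and 4614, Suv39h1/2;Setdb1-TKO 6281 and 6728, and QKO 6812 and 8878. G9a-KO libraries were the lowest at 2261 and 2437 TPM, with 4108 and 3802 in G9a;Setdb1-DKO, 2944 and 3536 in G9a;Suv39h1/2-TKO, and 6358 and 6565 in Dux-KO QKO. The 2 QKO libraries differed by more than those of any other group.

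The log2 fold change of Dppa5a against control was 0.94 in Setdb1-KO (SE 0.123, adjusted p = 4.55e-05 by limma), 1.08 in Suv39h1/2;Setdb1-TKO, 1.34 in QKO (SE 0.123, adjusted p = 4.64e-07) and 1.07 in Dux-KO QKO. Smaller calls were 0.62 in Suv39h1/2-DKO (adjusted p = 0.0144), 0.36 for G9a;Setdb1-DKO (adjusted p = 0.0252), and -0.39 in G9a-KO (adjusted p = 0.0223). These 3 were lost with no filter on low values (adjusted p = 0.0540, 0.0593 and 0.0557 in that order) and with scaling by median ratios (0.0605, 0.0629 and 0.116). The Suv39h1/2-DKO call was also lost without control replicate 1 (adjusted p = 0.205) or Suv39h1/2-DKO replicate 1 (0.163) or 2 (0.0910), and the G9a-KO call without control replicate 2 (0.194) or G9a-KO replicate 1 (0.129) or 2 (0.0523). The G9a;Setdb1-DKO call was lost without replicate 1 of control (adjusted p = 0.213) or of its own group (0.120).

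**Figure D2:**
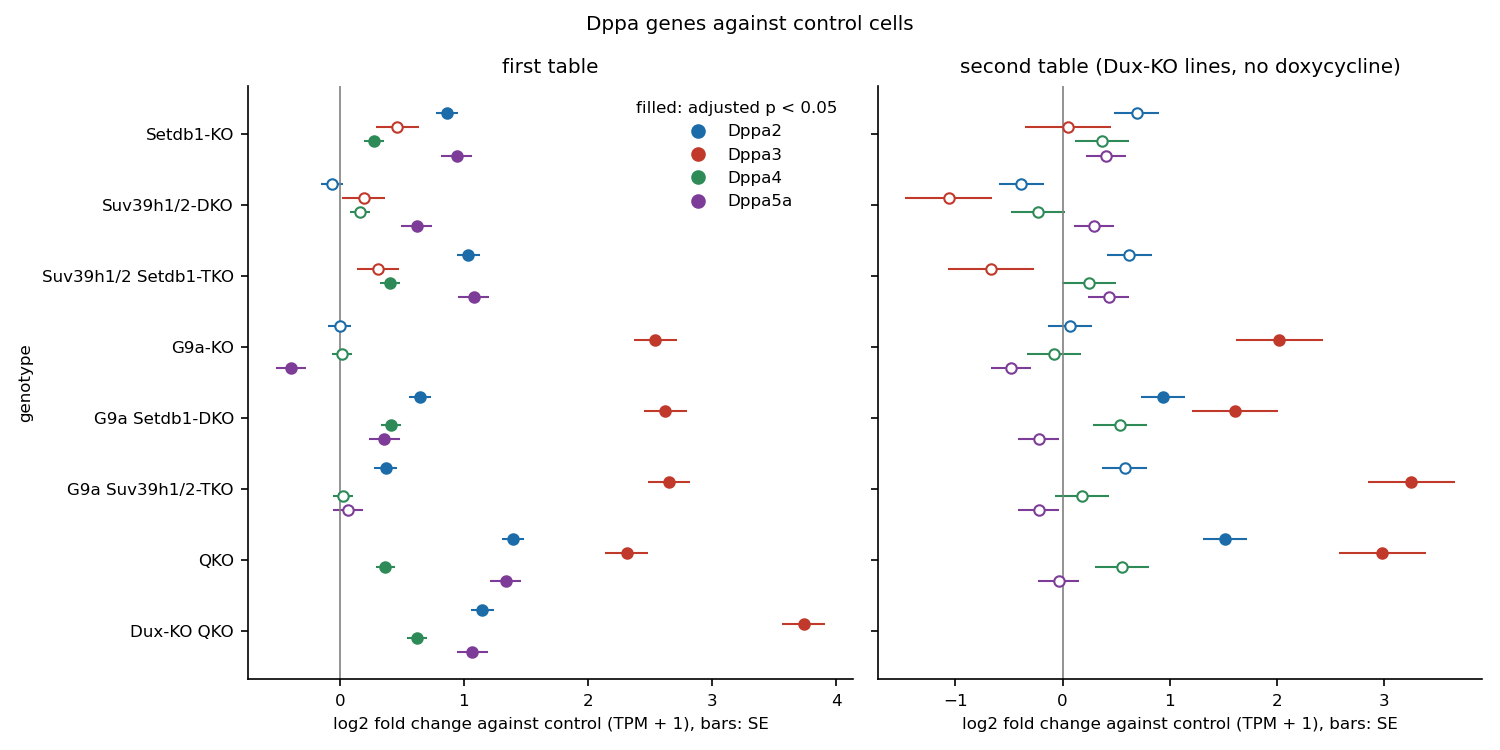
Log2 fold change (TPM + 1) of each Dppa gene against control cells, with the standard error of limma as bars, in the first table and in the Dux-KO lines without doxycycline. Filled points passed the test, and Dppa3 lies at 2.31 to 3.74 in the first table's genotypes lacking G9a.

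Each enzyme could be removed on 4 backgrounds in the first table, which gave 12 steps and 48 pairs of a member and a step, of which 23 were higher and 3 lower, 7 of the 23 at least 2-fold. Loss of Setdb1 raised Dppa2, Dppa4 and Dppa5a on all 4 backgrounds, where 12.5% (control), 13.3% (Suv39h1/2-DKO), 14.9% (G9a-KO) and 18.9% (G9a;Suv39h1/2-TKO) of all tested genes were higher. The log2 step was 0.65 to 1.10 for Dppa2 (2-fold on Suv39h1/2-DKO and G9a;Suv39h1/2-TKO cells, against 4.65% and 6.45% of genes), 0.24 to 0.39 for Dppa4 and 0.46 to 1.27 for Dppa5a. Dppa3 passed the test on none of the 4, with -0.34 to 0.46. On the Suv39h1/2-DKO background, Dppa4 (0.24, adjusted p = 0.0351) lost its call in 8 of the 18 fits that left out 1 library (the 2 control, 2 Suv39h1/2-DKO, 2 Suv39h1/2;Setdb1-TKO and 2 G9a-KO libraries), at adjusted p = 0.0514 to 0.190. Dppa5a (0.46, adjusted p = 0.0118) lost it there without Suv39h1/2-DKO replicate 2 (adjusted p = 0.0849) or Suv39h1/2;Setdb1-TKO replicate 2 (adjusted p = 0.0926).

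Steps of G9a and of Suv39h1/2 compare different lines. With loss of G9a, Dppa3 was higher on all 4 backgrounds, by 2.54 on control, 2.16 on Setdb1-KO, 2.46 on Suv39h1/2-DKO and 2.00 on Suv39h1/2;Setdb1-TKO. In the same steps 16.9%, 21%, 14.7% and 18.2% of all tested genes were higher, and 5.52%, 6.35%, 4.41% and 5.72% at least 2-fold higher. Dppa5a was lower on 3 backgrounds, at -0.39 on control, -0.58 on Setdb1-KO (adjusted p = 0.00202) and -0.55 on Suv39h1/2-DKO (adjusted p = 0.00385), where 18.1%, 11.8% and 11.1% of genes were lower. The last of these was lost without G9a;Suv39h1/2-TKO replicate 1 (adjusted p = 0.0550). On Suv39h1/2;Setdb1-TKO cells Dppa5a was at 0.26 (adjusted p = 0.123) and passed as higher without QKO replicate 1 (0.45, adjusted p = 0.0146). Dppa2 was higher after loss of G9a on Suv39h1/2-DKO (0.43, adjusted p = 0.00261) and on Suv39h1/2;Setdb1-TKO cells (0.36, adjusted p = 0.00718). The second of these was lost without Suv39h1/2;Setdb1-TKO replicate 2 (adjusted p = 0.0730). On Setdb1-KO cells Dppa2 was at -0.22 (adjusted p = 0.0839), which passed after scaling (-0.31, adjusted p = 0.00227) and without G9a;Setdb1-DKO replicate 2 (adjusted p = 0.0234). Dppa4 passed the test in none of the 4 G9a steps (-0.13 to 0.14).

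With loss of Suv39h1/2, Dppa2 was higher on G9a-KO (0.37, adjusted p = 0.0159) and G9a;Setdb1-DKO cells (0.75, adjusted p = 5.29e-05), where 5.83% and 9.81% of genes were higher. Dppa5a was higher on control (where 0.981% of genes were), G9a-KO (0.46, adjusted p = 0.0256) and G9a;Setdb1-DKO cells (0.98, adjusted p = 7.31e-05). On G9a-KO cells both calls were lost without any 1 of the G9a-KO libraries (Dppa2 at adjusted p = 0.127 and 0.0696, Dppa5a at 0.168 and 0.0824) and without G9a;Suv39h1/2-TKO replicate 2 (0.0982 and 0.218). Dppa2 also lost its call there without G9a;Suv39h1/2-TKO replicate 1 (0.0639), and Dppa5a with no filter (0.0666) and with scaling (0.143). On Setdb1-KO cells no member passed (adjusted p = 0.794 to 1), in a step where 0.209% of all genes were higher. Whether a step differed between backgrounds was not tested.

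In the QKO line without Dux, Dppa2 was still above control and Dppa3 above the QKO. By title this line is not that of the QKO, so loss of Dux and the line cannot be told apart. Dux was at 25.7 and 21.8 TPM in the QKO libraries and listed at 0 in both Dux-KO QKO libraries. In QKO relative to Dux-KO QKO, Dppa3 was lower (27.1 ± 2.80 against 74.5 ± 2.86 TPM, SD, n = 2, log2 fold change -1.43, adjusted p = 2.26e-05 by limma). Dppa4 was also lower (310 ± 18.7 against 369 ± 25.6 TPM, n = 2, -0.25, adjusted p = 0.021 by limma), and Dppa2 higher (341 ± 2.16 against 287 ± 1.35 TPM, n = 2, 0.25, adjusted p = 0.041 by limma). Of all tested genes 34.5% were lower (4.71% at least 2-fold, as Dppa3 was) and 6.95% higher, with a median of -0.22. After scaling by median ratios, which moved that median to -0.01, Dppa3 was at -1.18 (adjusted p = 0.000433), Dppa4 at -0.00 (adjusted p = 0.978), Dppa2 at 0.50 (adjusted p = 9.57e-05) and Dppa5a at 0.52 (adjusted p = 0.0342, against 0.27 and 0.095 before).

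Whether the smaller of these values passed depended on which libraries entered the fit. The log2 fold change of Dppa2 itself stayed at 0.24 to 0.25 in the fits where its call was lost. The Dppa2 call was lost in 11 of 18 fits that left out 1 library (both libraries of control, Suv39h1/2-DKO, G9a-KO, QKO and Dux-KO QKO, and replicate 1 of G9a;Suv39h1/2-TKO, at adjusted p = 0.05005 to 0.139). Dppa4 lost its call without QKO replicate 2 (adjusted p = 0.153) or Dux-KO QKO replicate 2 (0.173). Dppa5a passed without QKO replicate 1 (0.46, adjusted p = 0.00952). All 8 primitive endoderm markers were lower in QKO than in Dux-KO QKO cells (median -1.33), in the direction of Dppa3, where 34.5% of all tested genes were lower. The trophoblast markers summed to 47.04 to 47.09 TPM in Dux-KO QKO, 27.3 to 33.1 TPM in QKO and 22.8 to 22.9 TPM in control, and the fibroblast markers to 7.98 to 10.7, 4.09 to 6.03 and 2.71 to 3.02 TPM. The part of any of these in the Dppa values was not tested.

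Set beside Dux itself, Dppa2 was above control in the groups with the highest Dux but did not follow it in every group. Dux was at 13.3 TPM in Setdb1-KO, 12.2 in Suv39h1/2;Setdb1-TKO, 16.1 in G9a;Setdb1-DKO and 23.8 in QKO, all with Dppa2 above control. Dux rose from 1.06 TPM in control to 2.83 TPM in G9a-KO cells (log2 fold change 0.90, adjusted p = 3.89e-05 by limma), where Dppa2 was at 129 TPM as in control. Dux was lower in Suv39h1/2-DKO cells (0.236 TPM, -0.73, adjusted p = 0.00377), where Dppa2 was at 124 TPM. Over the 9 group means on the log2 scale, r was 0.54 between Dppa2 and Dux, 0.24 between Dppa4 and Dux, -0.07 between Dppa3 and Dux, and 0.82 between Dppa2 and Dppa4. The r values with Dux include Dux-KO QKO, where the knockout sets Dux to 0, and r without that group was not computed. All these r values describe groups that share lines and controls, and they carry no p.

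**Figure D3:**
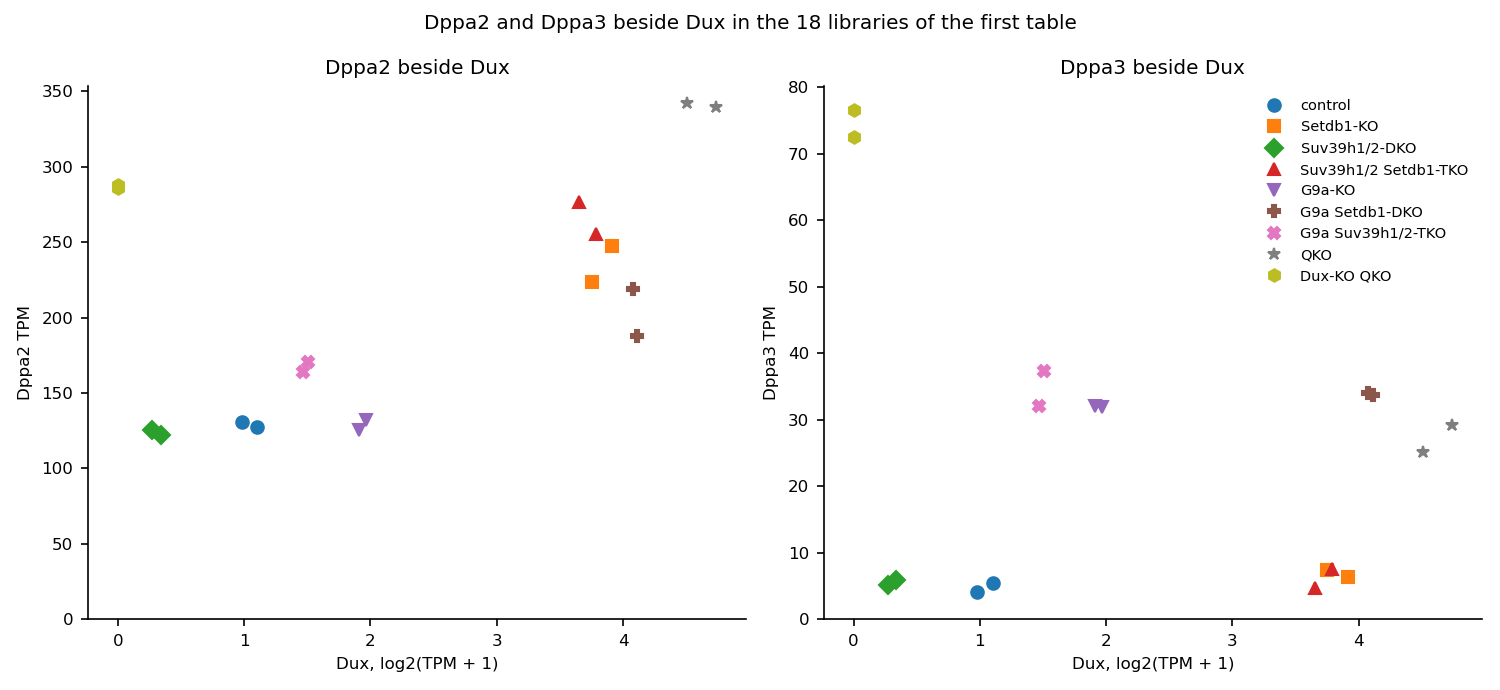
Dppa2 and Dppa3 (TPM, linear axis from 0) against Dux on the log2(TPM + 1) scale in the 18 libraries of the first table. The Dux-KO QKO libraries have Dux at 0 with Dppa2 at 286 and 288 TPM and Dppa3 at 72.5 and 76.5 TPM.

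The second table asks whether these levels depend on Dux, since its lines lack the endogenous gene and make Dux from a transgene. Without doxycycline, 6 of 28 pairs of a member and a genotype were higher than control and 0 lower, 5 of them at least 2-fold, by limma with adjusted p below 0.05. At an unadjusted p below 0.05, 13 were higher and 2 lower. Of all 13819 tested genes, 3.63% were higher in Setdb1-KO, 2.26% in Suv39h1/2-DKO, 4.84% in Suv39h1/2;Setdb1-TKO, 8.86% in G9a-KO, 16.5% in G9a;Setdb1-DKO, 8.47% in G9a;Suv39h1/2-TKO and 15% in QKO. Dppa3 accounted for 4 of the 6 and Dppa2 for 2. Levels in the 2 tables were normalised separately and are not compared.

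Dppa3 was high again in the lines lacking G9a. Without doxycycline it was at 11.1 TPM in both control libraries, 43.3 and 53.6 in G9a-KO, 27.1 and 47.4 in G9a;Setdb1-DKO, 142 and 91.9 in G9a;Suv39h1/2-TKO, and 109 and 82.1 in QKO. Over both doxycycline states, 16 libraries without G9a had 27.1 to 142 TPM and 16 with it 2.20 to 14.1 TPM, with no overlap. The log2 fold change was 2.02 in G9a-KO (SE 0.405, adjusted p = 0.00118 by limma), 1.61 in G9a;Setdb1-DKO (adjusted p = 0.00437), 3.25 in G9a;Suv39h1/2-TKO and 2.98 in QKO. Of all tested genes 3.07%, 7.35%, 2.99% and 6.59% were at least 2-fold higher in these comparisons. The G9a;Setdb1-DKO call was lost without the 6 libraries of high Snhg RNA (1.21, adjusted p = 0.120) and without replicate 2 of that group (1.22, adjusted p = 0.0673). Primitive endoderm markers summed to 187 to 214 TPM in the control line, 307 to 423 in G9a-KO, 178 to 233 in G9a;Setdb1-DKO, 188 to 281 in G9a;Suv39h1/2-TKO and 131 to 175 in QKO. In the lines that kept G9a they summed to 196 to 253 TPM in Setdb1-KO, 155 to 210 in Suv39h1/2-DKO and 137 to 180 in Suv39h1/2;Setdb1-TKO. The part of these markers in the Dppa3 values was not tested.

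The Suv39h1/2-DKO line had the lowest mean Dppa3 of this table in both doxycycline states, with 7.997 and 2.73 TPM in its untreated libraries. The difference from control was -1.06 (SE 0.405, adjusted p = 0.13) and did not pass the test. It passed without Suv39h1/2-DKO replicate 1 (-1.70, adjusted p = 0.0485).

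Dppa2 was at 148 and 161 TPM in the control line without doxycycline, 251 and 248 in Setdb1-KO, 213 and 266 in Suv39h1/2;Setdb1-TKO, 293 and 299 in G9a;Setdb1-DKO, 225 and 236 in G9a;Suv39h1/2-TKO, and 430 and 455 in QKO. It was higher by limma in QKO (1.51, SE 0.207, adjusted p = 1.13e-05) and G9a;Setdb1-DKO (0.94, adjusted p = 0.00158). In Setdb1-KO (0.69, adjusted p = 0.0521), Suv39h1/2;Setdb1-TKO (0.62, adjusted p = 0.0547) and G9a;Suv39h1/2-TKO (0.58, adjusted p = 0.0569) it missed the threshold. These 3 passed with scaling by median ratios (adjusted p = 0.0263, 0.00907 and 0.0118) and with high Snhg RNA as a term (0.0289, 0.0250 and 0.0270). They also passed in fits without either library of Suv39h1/2-DKO at either doxycycline state (0.0195 to 0.0386), and the first 2 of them in fits without a G9a-KO library given doxycycline (0.0451 to 0.0478). G9a-KO (169 and 155 TPM) and Suv39h1/2-DKO libraries (90.2 and 154 TPM) overlapped with control, and Suv39h1/2-DKO passed as lower without its replicate 2 (-0.77, adjusted p = 0.0432).

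**Figure D4:**
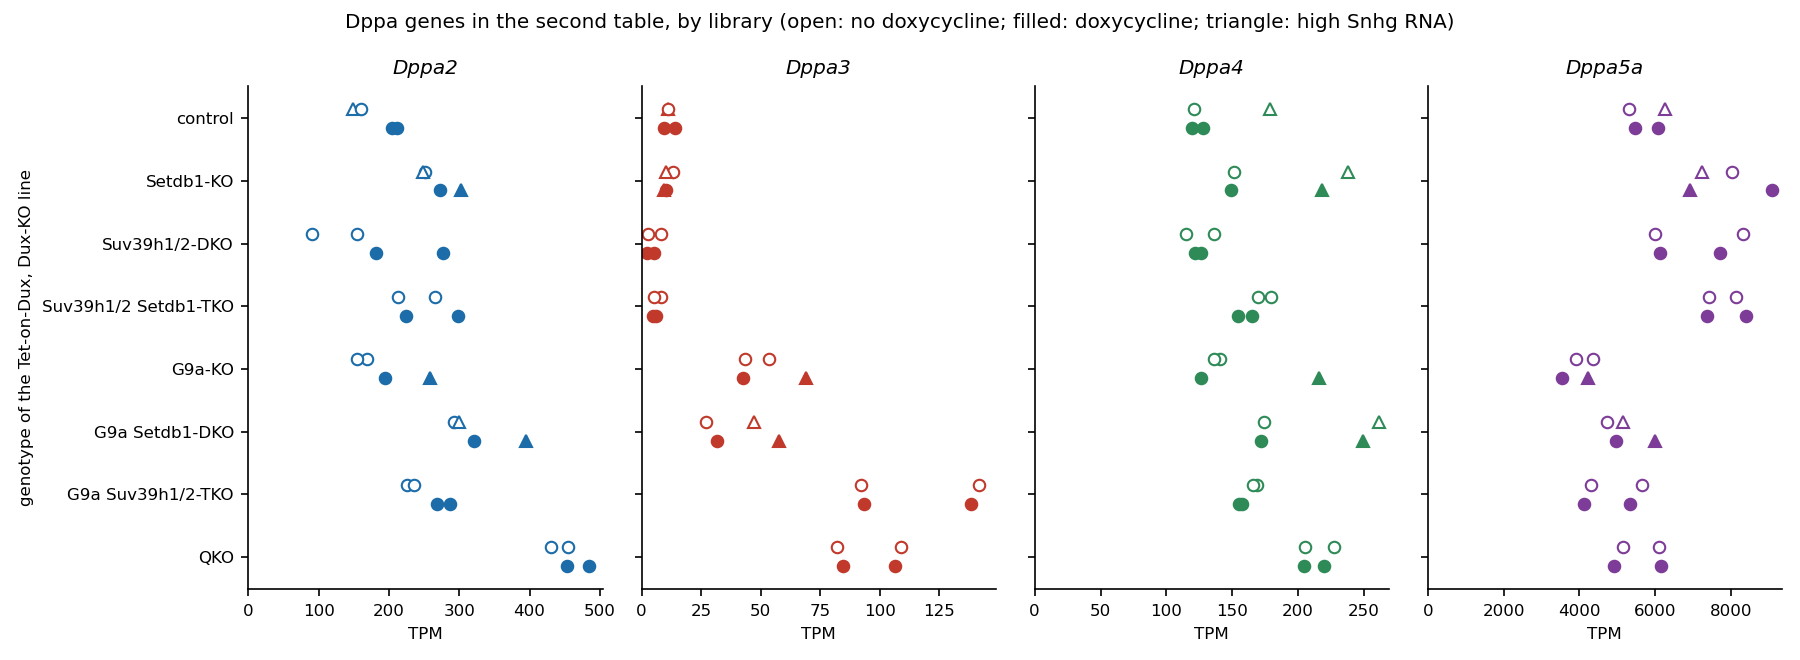
Level of each Dppa gene (TPM, linear axis from 0) in the 32 libraries of the second table, open without and filled with doxycycline, triangles for the 6 libraries of high Snhg RNA. Dppa3 separates the lower 4 genotypes, which lack G9a, from the upper 4.

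Dppa4 in these lines differed with the class of high Snhg RNA. In each of the 6 groups that held 1 such library, Dppa4 was higher in it, by 1.45 to 1.70 times. In the control line without doxycycline the pair was 179 and 121 TPM, and in Setdb1-KO 238 and 151 TPM. Dppa2 in the same pairs was 0.924 to 1.33 times as high. Dppa3 was 1.62 to 1.81 times as high in the 3 such groups lacking G9a and 0.775 to 0.996 times in the other 3. What the class reflects was not tested.

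By limma, Dppa4 passed the test against control in 0 of 7 genotypes, at -0.23 to 0.55 (2 higher at an unadjusted p below 0.05). With the class as a term, an alternative chosen after seeing the data, it passed in 5 of 7: 0.36 in Setdb1-KO (adjusted p = 0.0069), 0.55 in Suv39h1/2;Setdb1-TKO, 0.53 in G9a;Setdb1-DKO, 0.49 in G9a;Suv39h1/2-TKO and 0.85 in QKO (adjusted p = 2.15e-07). Without the 6 libraries it passed in 4, with 0.52 in Suv39h1/2;Setdb1-TKO and G9a;Setdb1-DKO, 0.46 in G9a;Suv39h1/2-TKO and 0.83 in QKO. After scaling it passed in G9a;Setdb1-DKO (adjusted p = 0.0151) and QKO (0.00438). Without control replicate 1 it passed in QKO (0.83, adjusted p = 0.0497), and without G9a;Setdb1-DKO replicate 1 in that line (0.83, adjusted p = 0.0435).

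**Figure D5:**
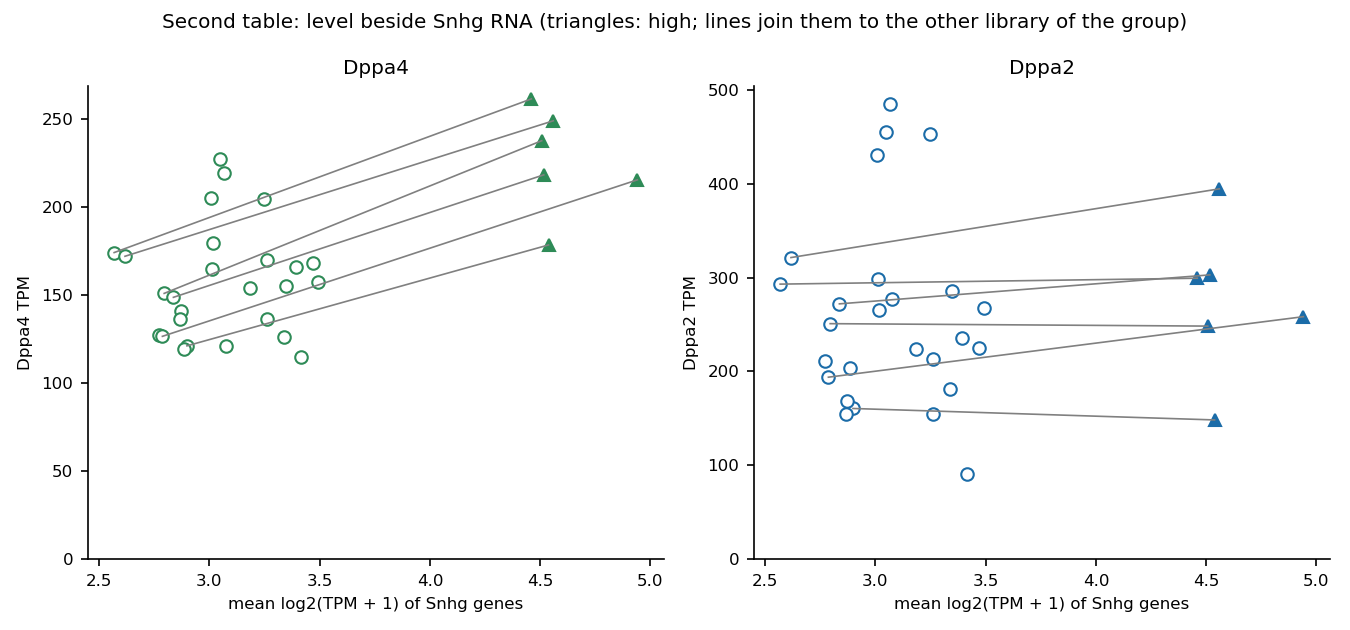
Dppa4 and Dppa2 (TPM, linear axis from 0) against the mean log2(TPM + 1) of 14 Snhg genes in the 32 libraries of the second table, with triangles for the 6 of high Snhg RNA and lines to the other library of their group. All 6 lines rise for Dppa4, by 1.45 to 1.70 times.

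Dppa5a did not pass the test in any of the 7 genotypes without doxycycline, at -0.48 to 0.43 (2 higher and 1 lower at an unadjusted p below 0.05). It was at 6262 and 5305 TPM in the control line, 8031 and 7242 in Setdb1-KO, 3913 and 4357 in G9a-KO, and 6109 and 5154 in QKO. In G9a-KO (-0.48, adjusted p = 0.0745) it passed only with all replicate numbers as a block (adjusted p = 0.0319). Over both doxycycline states, 16 libraries lacking G9a had a median of 4931 TPM and the 16 others 7304 TPM, with overlapping ranges. The QKO line lay near its control (-0.04, 95% interval -0.44 to 0.36). In the first table Dppa5a was higher than control both in QKO (1.34) and in Dux-KO QKO (1.07, adjusted p = 3.17e-06 by limma).

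Doxycycline raised the transgene in each genotype and Dppa2 past the test in 1 of 8. TetOnDux went from 0.786 to 3.62 TPM, by genotype, without doxycycline to 29.2 to 65.3 TPM with it. Dppa2 went from 90.2 and 154 TPM to 182 and 277 TPM in Suv39h1/2-DKO cells (0.92, SE 0.207, adjusted p = 0.0403 by limma), where 0.485% of all tested genes were higher. That call was lost with no filter (adjusted p = 0.0671), without the libraries of high Snhg RNA (0.0596) and in 20 of 32 fits that left out 1 library. The largest changes came without Suv39h1/2-DKO replicate 1 of the untreated pair (0.54, adjusted p = 0.612) or replicate 2 of the treated pair (0.62, adjusted p = 0.622), and the other 18 fits gave 0.0506 to 0.0575. Those 18 left out both libraries of control at either state, Setdb1-KO, G9a-KO and G9a;Setdb1-DKO without doxycycline, and G9a;Suv39h1/2-TKO and QKO at either state.

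In the other 7 genotypes Dppa2 did not pass the test under doxycycline in the fit without a block. Control libraries went from 148 and 161 to 211 and 204 TPM (0.42, 95% interval -0.01 to 0.86, adjusted p = 0.773), and G9a-KO from 169 and 155 to 194 and 258 TPM (0.47, adjusted p = 0.499). With replicate numbers as a block within each genotype, G9a-KO passed (0.47, adjusted p = 0.0271), where 1.01% of all genes were higher in the fit without the block. The higher of its treated libraries (replicate 2, 258 TPM) is one of the 6 of high Snhg RNA, and without those 6 the value was 0.26 (adjusted p = 0.780, no block). The block fit without that library was not run. In QKO cells, at 430 and 455 against 453 and 484 TPM, the libraries overlapped (0.08, -0.36 to 0.52). The median of all tested genes was -0.15 in control, -0.22 in G9a;Setdb1-DKO, -0.13 in G9a;Suv39h1/2-TKO and -0.21 in QKO, so these Dppa2 values are 0.60, 0.51, 0.42 and 0.34 after scaling.

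Dppa3 (-0.37 to 0.25), Dppa4 (-0.25 to 0.25) and Dppa5a (-0.09 to 0.14) passed in none of the 8 genotypes under doxycycline by limma, and in none at an unadjusted p below 0.05. The share of all tested genes that were higher was 0.195% in control, 0.174% in Setdb1-KO, 0.253% in Suv39h1/2;Setdb1-TKO, 0.832% in G9a;Setdb1-DKO, 0.514% in G9a;Suv39h1/2-TKO and 0.391% in QKO. The summed level of the trophoblast markers was lower with doxycycline than without in each of the 8 genotypes, with no overlap (47.0 to 58.6 against 34.5 to 37.0 TPM in control, 42.8 to 63.0 against 23.5 to 35.6 TPM in Suv39h1/2-DKO). Its part in the Dppa2 values was not tested. As a check that doxycycline acted, 10 of 21 tested genes of a list of Dux-linked 2-cell genes were higher in the control line, 17 in G9a-KO (against 1.01% of all tested genes) and 16 in QKO. Of 32 differences in doxycycline response between genotypes of the same dose label, 0 passed the test by limma and 2 had an unadjusted p below 0.05, both of Dppa2. In these 8 contrasts 0% to 0.0145% of all tested genes passed. The largest difference was that of Dppa2 between Suv39h1/2;Setdb1-TKO and Suv39h1/2-DKO (-0.80, 95% interval -1.42 to -0.18, adjusted p = 1).

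Genes linked to the members in function changed in some of the same genotypes. Of 5 tested genes linked to Dppa2 and Dppa4, most of them germline genes, all 5 were higher in Setdb1-KO and QKO cells. Their median in Setdb1-KO was 2.10 (all genes -0.12), and in G9a-KO 1 was higher and 1 lower. Of all tested genes, 12.5% were higher in Setdb1-KO, 25.3% in QKO and 16.9% in G9a-KO, where 18.1% were lower. Mael, a piRNA pathway factor, went from 6.02 ± 0.104 to 63.7 ± 1.99 TPM in Setdb1-KO (n = 2, 3.20, adjusted p = 4.8e-11 by limma), and Dazl, a germ cell RNA-binding protein, from 5.58 to 46.1 TPM in QKO. In Dux-KO QKO cells all 5 were higher as well, where 36.3% of all tested genes were. In the Dux-KO lines without doxycycline 4 of 6 were higher in Setdb1-KO and in QKO, against 3.63% and 15% of all tested genes. Under doxycycline 0 of 6 passed in any of the 8 genotypes. The part of Dppa2 and Dppa4 in these changes was not tested.

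Dux-linked 2-cell genes, the targets downstream of Dppa2 and Dppa4, were higher for 19 of 22 tested genes in Setdb1-KO (median 2.88), for 22 in G9a-KO (2.20) and 22 in QKO cells (5.67), and lower for 13 in Suv39h1/2-DKO (-0.76), where 1.2% of all genes were lower. Of all tested genes, 12.5% were higher in Setdb1-KO, 16.9% in G9a-KO and 25.3% in QKO. Of 18 other known regulators of Dux, 6 were lower in Setdb1-KO, against 21.6% of all tested genes (among them Trim28, the Setdb1 partner, 892 to 624 TPM) and 0 higher. In QKO, where 28% of all genes were lower, 6 were lower (Chaf1a, a chromatin assembly subunit, 77.8 to 50.3 TPM) and Nelfa, a maternal elongation factor, was higher (74.6 to 169.9 TPM). In G9a-KO, Lin28a (98.9 to 184 TPM) was higher and none lower, where 18.1% of all genes were lower.

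Of 10 DNA methylation genes linked to Dppa3, 4 were higher and none lower in G9a-KO, against 16.9% and 18.1% of all tested genes. Dnmt3l, the cofactor of de novo methylation, went from 67.4 to 141 TPM (1.05, adjusted p = 1.24e-05 by limma) and Dnmt3b from 71.6 to 142 TPM (0.98). Uhrf1 was at 263 TPM in control and 269.7 TPM in G9a-KO (0.04, adjusted p = 0.86). Dnmt3l was also higher in Setdb1-KO cells (176 TPM), where Dppa3 did not pass the test.

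Of 5 tested KH-domain and maternal complex genes related to Dppa5a, 1 was higher and 2 lower in G9a-KO, against 16.9% and 18.1% of all tested genes. Ooep, the neighbour of Dppa5a, went from 78.7 to 25.3 TPM (-1.60, adjusted p = 2.67e-09 by limma) and Khdc3 from 8.77 to 16.9 TPM. In the Dux-KO line G9a-KO without doxycycline, Ooep was at 44.6 against 133 TPM (-1.56, adjusted p = 4.96e-09), with Dppa5a at 4135 against 5784 TPM. Of the genes around the other members, Morc1, a neighbour of Dppa2, rose in G9a-KO (44.3 to 80.7 TPM) and fell in Setdb1-KO (31.1 TPM, -0.50), where Dppa2 rose. Nanog, the neighbour of Dppa3, fell in G9a-KO (363 to 199 TPM, -0.86), where Dppa3 rose. Of 18 naive pluripotency factors, 1 was higher and 8 lower in Setdb1-KO, 2 and 9 in G9a-KO, and 7 and 5 in QKO. The background over all tested genes was 12.5% up and 21.6% down for Setdb1-KO. This background was 16.9% and 18.1% for G9a-KO, and 25.3% and 28% for QKO.

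By r over the 9 group means of the first table among 8988 genes, the nearest to Dppa2 were Rint1 (0.990), Tex12 (0.981) and Tra2a (0.971), with r of 0.52, 0.63 and 0.70 over the 16 groups of the second table. Dppa3 was nearest to Glipr1 (0.989), Plet1 (0.988) and Ociad1 (0.987), with 0.76, 0.76 and 0.15 in the second. Dppa4 was nearest to Zak (0.986), Abhd4 (0.969) and Hist3h2a (0.967), with 0.63, 0.57 and 0.09. Dppa5a was nearest to Coa4 (0.982), Depdc7 (0.970) and Morn2 (0.967), with 0.28, 0.63 and -0.25. These genes were picked on the first table's values, and the groups share lines. Between members, r over the second table's groups was 0.81 for Dppa2 and Dppa4 and -0.77 for Dppa3 and Dppa5a, the latter at -0.04 in the first.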

How the data were processed

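Polyadenylated RNA of TT2 ES cells was sequenced as 150 nt paired-end reads from a stranded library kit, per the labels' protocols. The submitters' processing notes name RSEM 1.3.1, STAR 2.7.10b, SAMtools 1.9 and Bowtie2 2.3.4.1, with mm10 as the build. Neither the annotation nor the treatment of multi-mapping reads is named in those notes or the labels. The values analysed were gene TPM as deposited by the authors in 2 tables. TPM keeps no depth, so the depth per library is unknown and no counting interval is given.

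Groups of each table entered 1 limma model (limma 3.58.1 in R 4.3.3) of log2(TPM + 1) with a variance trend (9 and 16 residual degrees of freedom), over the 13862 and 13819 genes that reached 1 TPM in 2 libraries or more, with Benjamini-Hochberg adjustment over all of them. A fold change on this scale understates that of low genes. Intervals are 95% intervals from the standard errors of the same model at its residual degrees of freedom, before adjustment. They are wider than its moderated test implies. SD is between the 2 libraries of a group. With 2 against 2 libraries the smallest exact permutation p is 0.333, so no permutation test was used.

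The members and gene lists were chosen with earlier results of these data known. Beside the members, Dux, the transgene and, of each list, genes past the test with the largest change and without overlap between groups, then the most abundant gene not past it, were available to be named; those shown were picked from them after their values were seen. Alternatives were a pseudocount of 0.1, no filter, scaling by median ratios, a replicate block and each library left out, and 3 chosen after seeing the data (2 on the Snhg class, and the block within a line). In the second table that last block was within a genotype. Whether replicate numbers pair libraries within a line is not settled. Deviations from group means correlated at 0.20 to 0.48 in 4 of 4 pairs of a parental line in the first table. There the highest value, 0.62, was between different lines (Setdb1-KO and G9a;Setdb1-DKO). In the second table they correlated at 0.18 to 0.75 in 8 of 8 doxycycline pairs of a genotype. Over its 24 pairs of a parental line the range was -0.65 to 0.75, with 19 over 0.1. Of all pairs, 25 of 36 and 66 of 120 were over 0.1. On simulated data for G9a-KO against control (13862 genes), 67 of 69 genes changed by a log2 of 1 were recovered. For doxycycline in the control line (13819 genes) 42 of 61 were. Of unchanged genes, 14 of 13662 and 9 of 13619 were called. The simulated errors were independent between libraries, unlike the correlated deviations above, and only more abundant genes were changed.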

Additional observations from a re-analysis of the deposited data

How the results depend on the processing

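With 2 libraries per group, single libraries decide the smaller calls, and TPM hide the depth. Of the first table's comparisons with control, 0 were lower with no filter and 0 with scaling by median ratios, against 1 as reported, and leaving out each library gave 19 to 24 higher and 0 to 1 lower. For QKO against Dux-KO QKO, scaling gave 2 higher and 1 lower against 1 and 2, and leaving out libraries gave 0 to 1 and 1 to 2. Steps gave 20 to 24 higher and 2 to 4 lower. Under doxycycline, 0 were higher with no filter, 0 without the libraries of high Snhg RNA, and 0 to 1 when leaving out each library, against 1. Against control without doxycycline, 11 were higher with scaling and 14 with high Snhg RNA as a term, against 6, and leaving out libraries gave 5 to 9 higher and 0 to 1 lower. No direction of a called value reversed under these alternatives.

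With the replicate block, members higher under doxycycline numbered 2 with pairing within a genotype, against 1. With all replicate numbers as a block, comparisons with control without doxycycline gave 1 lower (Dppa5a in G9a-KO) against 0, and 3 Dppa2 values passed (adjusted p = 0.0109 in Setdb1-KO, 0.0136 in Suv39h1/2;Setdb1-TKO and 0.0151 in G9a;Suv39h1/2-TKO, by limma). That block also raised Dppa3 past the test in Setdb1-KO cells of the first table (adjusted p = 0.0361), and the 2 kinds of block changed no other call of a member. The pseudocount of 0.1 changed only Dppa3 in Setdb1-KO (adjusted p = 0.0432).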
